A study of Mus musculus with 6 samples.

Results

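The sites described here are peaks of the CoREST protein RCOR3 in mouse embryonic stem cells that no peak of REST, RCOR1, RCOR2, SIN3A or SIN3B accompanied. They were selected on distance in the deposited lists of chromatin immunoprecipitation and sequencing (ChIP-seq) peaks. An RCOR3 peak was kept when no midpoint of the other 5 lists lay less than 400 bp from its own midpoint, and a crowded stretch of 100 kb on chromosome X was left out. The rule kept 2289 of the 3744 RCOR3 peaks (61.1%, 95% Clopper-Pearson interval 59.6 to 62.7%), out of 14023 peaks in all 6 lists. They are called RCOR3-only sites below, which means that the other lists hold no peak there and not that the other proteins were shown to be absent.

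All 6 libraries came from E14, a mouse embryonic stem cell line, at passages 15 to 18, with 1 library for each protein. RCOR3 was precipitated with a V5 antibody from a stable E14 line in which a V5-tagged RCOR3 transgene was expressed at a low level, so the list maps the tagged protein. RCOR1 and RCOR2 were tagged with V5 and precipitated in the same way. SIN3B was also precipitated with the V5 antibody, although the label of its transgene names the tag VG. REST and SIN3A were precipitated from E14 cells with antibodies against the proteins themselves. With 1 library for each protein there is no replicate error, no test compares groups, and the intervals cover counting error only. The other lists differed greatly in length, from 84 peaks (RCOR1) and 459 (RCOR2) through 1314 (SIN3A) and 3104 (REST) to 5318 (SIN3B), so a short list could remove few RCOR3 peaks. The crowded stretch of chromosome X held 24 of the 84 RCOR1 peaks and 22 of the 459 RCOR2 peaks. Read depth and an untagged control precipitation were not analysed here.

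RCOR3 is 1 of the 3 CoREST proteins. CoREST proteins are scaffolds that join the histone demethylase LSD1 to histone deacetylases, and they are known as partners of REST, a zinc finger repressor that keeps neuronal genes silent outside neurons. SIN3A and SIN3B are scaffolds of a separate histone deacetylase complex that REST also recruits. CoREST complexes can also be brought to chromatin by other DNA-binding factors. Positions are on build mm8 as deposited, and no annotation of that build was used, so sites are given by position without genes.

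The other 1440 RCOR3 peaks outside the crowded stretch had a partner. Of these, 957 lay at a REST peak and 483 only at a cofactor peak. A SIN3B peak was the commonest partner, at 1039 (72.2%), ahead of REST at 66.5%, SIN3A at 268 (18.6%), RCOR2 at 251 (17.4%) and RCOR1 at 56 (3.89%). This is also the order of list length, from 5318 peaks (SIN3B) to 84 (RCOR1). It therefore does not rank how closely each protein accompanied RCOR3. Other lists also held many peaks without a partner. By the same rule, 3395 of the 5318 SIN3B peaks (63.8%, 62.5 to 65.1%) and 1676 of the 3104 REST peaks (54.0%, 52.2 to 55.8%) were found in no other list.

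RCOR3-only sites were mostly low-ranking peaks of the RCOR3 list. The score, a number that the authors assigned to each peak and whose meaning is not stated, was used for ranks within the list. Scores of the RCOR3-only sites ran from 9.20 to 50.18 with a median of 11.71 (quartiles 10.87 and 13.38). RCOR3 peaks at REST ran from 9.20 to 378.03 with a median of 15.89 (quartiles 12.55 and 22.58). Those at another cofactor away from REST lay between, with a median of 13.38 (quartiles 11.71 and 17.56). The 3 groups overlapped over the whole range of the RCOR3-only sites, but no RCOR3-only site scored above 50.18. As percentiles of the RCOR3 list, the median was 35.3 for RCOR3-only sites, 75.7 at REST and 59.1 at another cofactor.

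Many peaks shared a score, and 1481 of the 2289 RCOR3-only sites (64.7%) had 1 of the 3 commonest values, 10.87, 11.71 and 12.55. Among common scores from 10.87 upwards, the share of RCOR3 peaks without a partner was mostly smaller at higher scores, though not at every step. It was 81.4% at a score of 10.87 (718 of 882, 78.7 to 83.9%), 71.6% at 12.55 (67.0 to 75.9%), 53.1% at 15.89 (44.1 to 62.0%) and 26.2% at 21.75 (13.9 to 42.0%). Between the percentiles 95 and 99, 21 of 156 peaks had no partner (13.5%, 8.53 to 19.8%). In the highest percentile, with scores from 56.87 to 378.03, 0 of 36 did, which allows a share of up to 9.74%. The 116 peaks that scored under 10.87 did not follow this order, since 46 of them (39.7%, 30.7 to 49.2%) were RCOR3-only, less than at 10.87 itself.

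**Figure D1:**
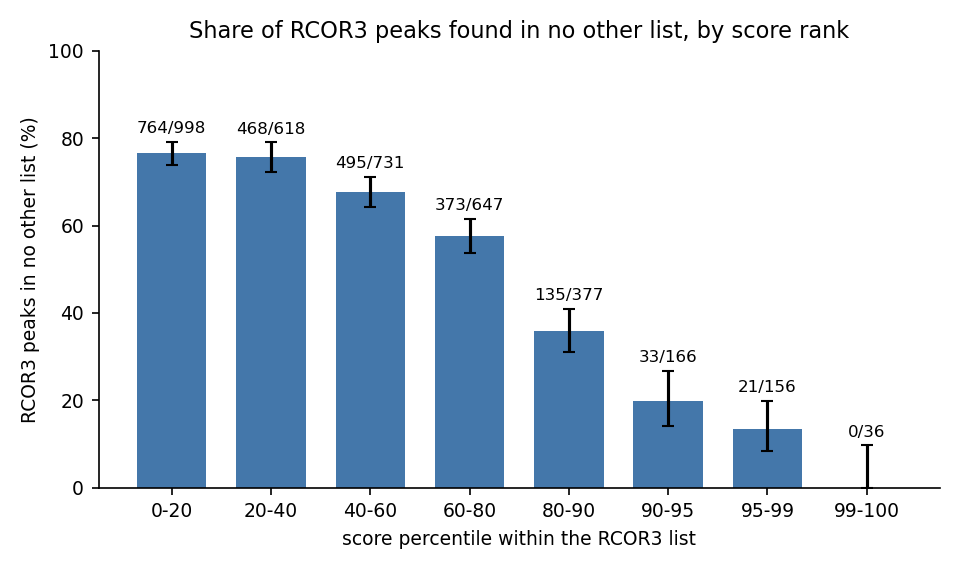
Share of RCOR3 peaks found in no other list (vertical axis, percent) by percentile of the score within the RCOR3 list (horizontal axis). Bars are shares with 95% Clopper-Pearson intervals and the numbers give RCOR3-only sites over all RCOR3 peaks of the bin outside the crowded stretch; the share falls from 76.6% in the lowest bin to 0 of 36 in the highest.

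The best-scoring RCOR3-only site was chr11:120767051-120767091, with a score of 50.18 at percentile 98.7. It lay 18.1 kb from the nearest SIN3B peak, 18.2 kb from SIN3A, 63.2 kb from RCOR2 and 190 kb from REST. The second, chr7:144752891-144753011 with a score of 40.98, lay 28.3 kb from SIN3A and 649 kb from REST. The third, chr4:57784931-57785051 with a score of 40.14, stood far from every other list, with SIN3A nearest at 826 kb. Proximity to another protein was thus varied even among the strongest sites. Of the 10 best-scoring sites, 1 had another list within 10 kb, namely chr2:172207191-172207331 (score 38.47), with SIN3B at 5.03 kb. The 10 scored between 32.62 and 50.18, were 40 to 300 bp wide and lay on chromosomes 2, 4, 6, 7, 11, 12, 13 and 19.

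Distances just inside and just outside the limit gave similar scores. The 18 RCOR3 peaks with another list at least 300 but under 400 bp away had a median score of 11.71, and the 14 with another list at least 400 but under 500 bp away had 11.29. Peaks less than 100 bp from another list, 1295 in all, had a median of 15.05. Of the peaks nearest the limit, chr14:54040011-54040171 (score 14.22) was kept with a SIN3B peak at 400 bp, and chr2:71456951-71457111 (score 15.89) was left out with one at 390 bp. SIN3B was the nearest list for 12 of these 14 sites. Only 56 RCOR3-only sites (2.45%) had any other list less than 1 kb away, so few of them depended on the exact limit.

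RCOR3-only sites were narrow, but less often of the smallest width than RCOR3 peaks at REST. Their median width was 60 bp, as in the whole RCOR3 list, with 814 of 2289 (35.6%, 33.6 to 37.6%) at 40 bp, the smallest width, and 655 (28.6%, 26.8 to 30.5%) at 100 bp or more. Of the RCOR3 peaks at REST, 47.5% were 40 bp wide (44.3 to 50.8%) and 23.1% at least 100 bp (20.5 to 25.9%). Sites away from REST with another cofactor resembled the RCOR3-only sites, with 37.5% (33.1 to 42.0%) and 28.2% (24.2 to 32.4%). Over 4 score quartiles, the shares of wide peaks had separate intervals in the highest alone. The same held for the shares of peaks 40 bp wide. In that quartile these were 39.9% of RCOR3-only sites (33.7 to 46.4%) and 50.7% of RCOR3 peaks with a partner (46.6 to 54.7%). In the highest score quartile 34.2% of RCOR3-only sites (28.2 to 40.5%) and 21.2% of RCOR3 peaks with a partner (18.0 to 24.7%) were at least 100 bp wide. The shares in the lowest quartile were 21.3% (18.5 to 24.4%) and 22.2% (17.1 to 28.1%), with overlapping intervals. SIN3B-only sites were at least 200 bp wide in 12.3% (11.2 to 13.4%), against 5.81% of RCOR3-only sites (4.89 to 6.85%). That share was not particular to RCOR3-only sites, since it was 6.01% in the whole RCOR3 list (5.27 to 6.82%).

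The widest RCOR3-only site, chr4:3009331-3012391, measured 3060 bp and stood apart from the second widest at 700 bp, chr7:82647511-82648211. Midpoints of RCOR2, REST and SIN3B peaks lay 1.13, 1.26 and 1.29 kb from its midpoint, inside its own interval. It is the single RCOR3-only site whose deposited interval overlapped a peak of another list, and it is a member only because the rule compares midpoints.

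Few RCOR3-only sites lay on chromosomes 8, 9 and X, each with a smaller share than any of the 15 chromosomes other than 8, 9, 10, 17 and X, which held 2.32 to 10.1% each. Chromosome 8 held 44 (1.92%, 1.40 to 2.57%), chromosome 9 held 11 (0.481%, 0.240 to 0.858%) and chromosome X held 1. Chromosome 10 held 156 (6.82%, 5.82 to 7.93%) and chromosome 17 held 164 (7.16%, 6.14 to 8.30%), both inside that range. RCOR3 peaks with a partner also had shares below those of the 15 others on chromosomes 9 and X, but not on 8. These peaks had 2.01% on chromosome 9 (1.35 to 2.88%) and 0.0694% on chromosome X. The lowest share on the 15 others was 2.92%, on chromosome 13. Their interval on chromosome 9 still lay wholly above that of the RCOR3-only sites. On chromosome 8 the peaks with a partner had 3.33% (2.47 to 4.40%), inside the range of the 15 others. That interval overlapped the interval of the RCOR3-only sites. RCOR3 peaks at REST had 2.61% on chromosome 8 (1.70 to 3.83%), 2.51% on chromosome 9 (1.61 to 3.71%) and 0.104% on chromosome X (0.00265 to 0.581%). Chromosomes 13 and 16 also held 2.51% of them each. Of the 3 intervals at REST, only that on chromosome 9 lay wholly above that of the RCOR3-only sites. SIN3B-only sites were distributed differently, with 8.78% on chromosome 8 (7.85 to 9.78%), 5.98% on chromosome 9 (5.21 to 6.83%), 4.71% on chromosome 10 (4.02 to 5.48%) and 5.30% on chromosome 17 (4.57 to 6.11%). These intervals did not overlap those of the RCOR3-only sites on any of the 4 chromosomes. The other lists decide which RCOR3 peaks are kept, and they are uneven over chromosomes themselves.

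Set against the REST peaks of the same chromosome, the number of RCOR3-only sites on chromosomes 8, 9, 10, 17 and X lay outside the range of the others. These chromosomes were set apart beforehand, with earlier results of these data known. The range was taken without them, so lying outside it is a description and no test. It was between 0.552 (chromosome 18) and 0.913 (chromosome 5) for each REST peak on the 15 other chromosomes, but 1.16 on chromosome 10, 1.21 on chromosome 17, 0.268 on chromosome 8, 0.0604 on chromosome 9 and 0.0417 on chromosome X, where 1 site stood beside 24 REST peaks. In sites for each 10 Mb of the span covered by the lists, the 15 other chromosomes had 5.55 (chromosome 3) to 18.1 (chromosome 11). Chromosomes 17 (17.8) and 10 (12.4) lay inside this range, and chromosomes 8 (3.47), 9 (0.915) and X (0.0631) below it. For SIN3B-only sites chromosome 8 had 23.5 and chromosome 9 had 16.9, both within the range of 8.60 to 26.6 over the 15 other chromosomes.

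The RCOR3 peaks that remained on chromosome 9 more often had a partner. Of its 40 RCOR3 peaks, 27.5% were RCOR3-only (11, interval 14.6 to 43.9%). The corresponding share was 47.8% on chromosome 8 (37.3 to 58.5%), 68.7% on chromosome 10 (62.3 to 74.7%) and 72.9% on chromosome 17 (66.6 to 78.6%), and 55.2 to 66.0% on the 15 others. The median score of RCOR3-only sites was 11.71 on chromosomes 8, 9, 10, 17 and X and between 11.71 and 12.55 on every other chromosome. Tied scores hold these medians in place, so they cannot show whether scores follow the shares. Scores of 10.87 or less made up 40.2% of the sites on chromosome 17, 28.8% on 10, 31.8% on 8 and 18.2% on 9 (2 of 11). On the 15 others they made up 25.4 to 41.1%. The best scores on chromosomes 9 and 8 were lower than those on chromosomes 17 and 10, where more sites were drawn from: chr9:7885111-7885151 scored 15.05, chr8:125072131-125072351 scored 19.24, chr17:29608031-29608091 scored 23.42 and chr10:80499951-80499991 scored 28.44. Best scores did not follow the number of sites throughout. Chromosome 18 reached 32.62 with 53 sites, and chromosome 15 reached 22.58 with 114. The single site on chromosome X, chrX:71830911-71831011, scored 11.71 and lay 722 kb from the nearest REST peak. Along the chromosomes, 38.6% of RCOR3-only sites (36.6 to 40.6%) lay in the last of 4 equal parts of the span, counted from the lowest coordinate, against 32.8% of SIN3B-only sites (31.3 to 34.5%), 34.0% of REST-only sites (31.7 to 36.3%) and 37.9% of RCOR3 peaks at REST (34.8 to 41.1%).

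**Figure D2:**
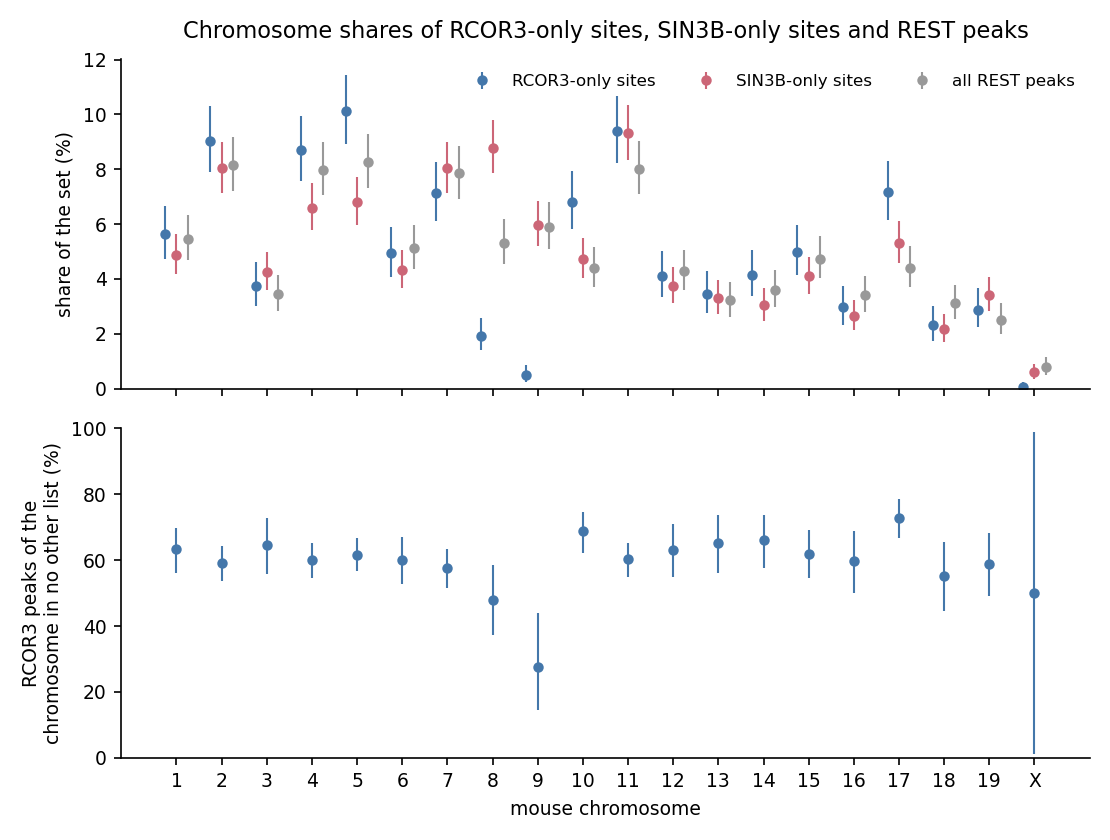
Top, share of each set of sites on each mouse chromosome (percent, 95% Clopper-Pearson intervals) for RCOR3-only sites (n = 2289), SIN3B-only sites (n = 3395) and REST peaks outside the crowded stretch of chromosome X (n = 3080). Bottom, share of the RCOR3 peaks of each chromosome that are RCOR3-only; RCOR3-only sites have their smallest shares on 8, 9 and X, and the bottom share is lowest on 9, at 27.5%.

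Most RCOR3-only sites stood alone at short range. The nearest RCOR3-only neighbour lay at a median of 95.1 kb (quartiles 23.4 and 308 kb) and never closer than 250 bp. All 6 lists have such a floor, with a smallest spacing of 230 to 260 bp. Another RCOR3-only site lay within 10 kb of 342 sites (14.9%, 13.5 to 16.5%) and within 1 kb of 54 (2.36%, 1.78 to 3.07%). For the same number of best-scoring SIN3B-only sites the shares were 12.4% (11.0 to 13.8%) within 10 kb and 5.16% (4.29 to 6.14%) within 1 kb. The interval at 1 kb lay below that of the SIN3B-only sites, while at 10 kb the intervals overlapped. All 3395 SIN3B-only sites had 16.6% within 10 kb and 7.28% within 1 kb. The low share at 1 kb was not particular to RCOR3-only sites. It was 2.79% (2.28 to 3.37%) for all RCOR3 peaks outside the crowded stretch and 1.67% (0.959 to 2.70%) for those at REST. Within 10 kb these had 16.1% and 5.85%. REST-only sites, 1676 in all and so more thinly spread, had 5.85% within 10 kb. On chromosome 17, 43 of 164 sites (26.2%, 19.7 to 33.6%) had such a neighbour within 10 kb, and on chromosome 9 none of 11.

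Sites under 10 kb apart formed 140 pairs, 18 triplets and 2 runs of 4. The run at chr10:84468731-84485031 spanned 16.3 kb with scores of 10.87, 11.71, 20.91 and 11.71, and no other list came within 73.5 kb of its sites. The other run of 4, chr4:140554131-140567851, had scores of 10.87 to 12.55 and a SIN3B peak 600 bp from 1 of its sites. The triplet with the best score, chr6:115725691-115735951, held a site at 35.96 beside sites at 10.87 and 15.89. Sites with and without a neighbour within 10 kb had the same median score (11.71) and width (60 bp). RCOR3 peaks that do have a partner were also found nearby: 94 RCOR3-only sites (4.11%, 3.33 to 5.00%) had one within 10 kb, and 39 (1.70%, 1.21 to 2.32%) had an RCOR3 peak at REST within 10 kb. There were fewer such peaks to meet, 1440 with a partner and 957 at REST.

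**Figure D3:**
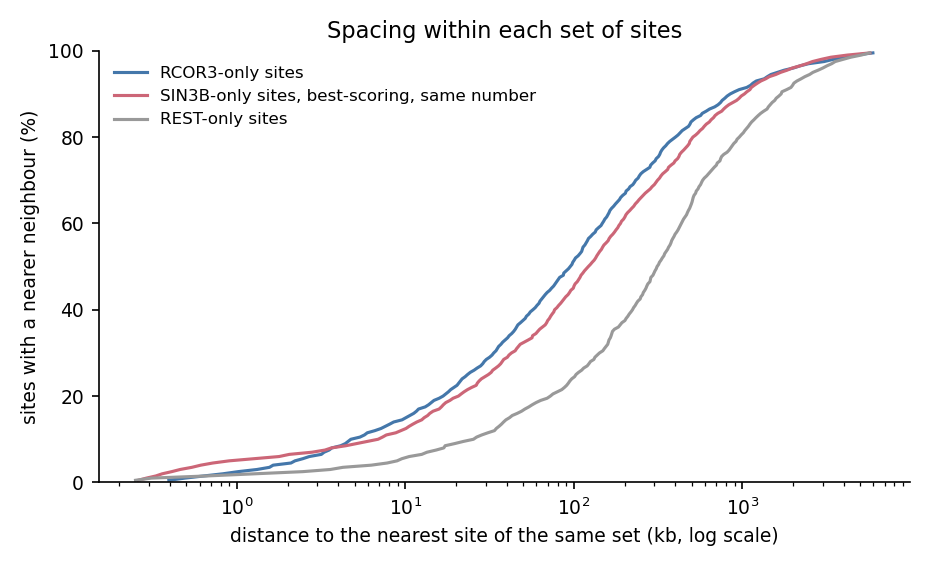
Percent of sites (vertical axis) whose nearest site of the same set is closer than the distance on the horizontal axis (kb, log scale), for RCOR3-only sites (n = 2289), as many best-scoring SIN3B-only sites, and REST-only sites (n = 1676). The SIN3B-only curve is higher at 1 kb (5.16 against 2.36%) and lower at 100 kb (45.3 against 51.3%).

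To ask where RCOR3-only sites lie relative to the other proteins beyond the limit of the rule, the share with a peak 400 bp to 10 kb away was set beside 19 circular shifts of each list. Each shift moved a list along every chromosome by a fixed fraction of the span of all 6 lists, so it describes unrelated placement on the same chromosome, and no p-value was drawn from it. A SIN3B peak lay in that window for 297 RCOR3-only sites (13.0%, 11.6 to 14.4%), where the shifts gave 84.3 on average and at most 120, a ratio of 3.52. REST lay there for 105 sites (4.59%, 3.77 to 5.53%), where the shifts gave 47.5 and at most 71, a ratio of 2.21. SIN3A did so for 85 (3.71%, 2.98 to 4.57%), against 20.3 and at most 34, a ratio of 4.18. RCOR2 did so for 42 (1.83%, 1.33 to 2.47%), against 7.37 and at most 13, a ratio of 5.70. RCOR1, with its short list, did so for 4 (0.175%, 0.0476 to 0.447%), against a mean of 1.21 and at most 4. For the 4 longer lists the observed count was above all 19 shifts, and for RCOR1 it equalled the highest.

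Shifts over short distances keep a list within the same region of a chromosome, and with them the count for REST at 10 kb no longer stood apart. With 20 local shifts of 200 to 2000 kb in both directions, the mean for REST was 92.2 sites (range 75 to 117), so the observed 105 lay within the range and the ratio was 1.14. In the wider window of 100 kb, REST was found for 829 sites, above every local shift (mean 687, at most 783, ratio 1.21). At 10 kb the other 3 long lists stayed above every local shift. The means were 163 for SIN3B (at most 226, ratio 1.82), 43.6 for SIN3A (at most 68, ratio 1.95) and 15.3 for RCOR2 (at most 28, ratio 2.75). SIN3B-only sites, treated the same way, had REST in the window at 198 of 3395 (5.83%, 5.07 to 6.67%), with ratios of 2.51 to circular and 1.54 to local shifts. Their count was above every local shift (at most 144). The intervals of the 2 shares overlapped, and the difference between the sets was not tested. For RCOR1, the 4 RCOR3-only sites lay within the local range of 0 to 6.

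**Figure D4:**
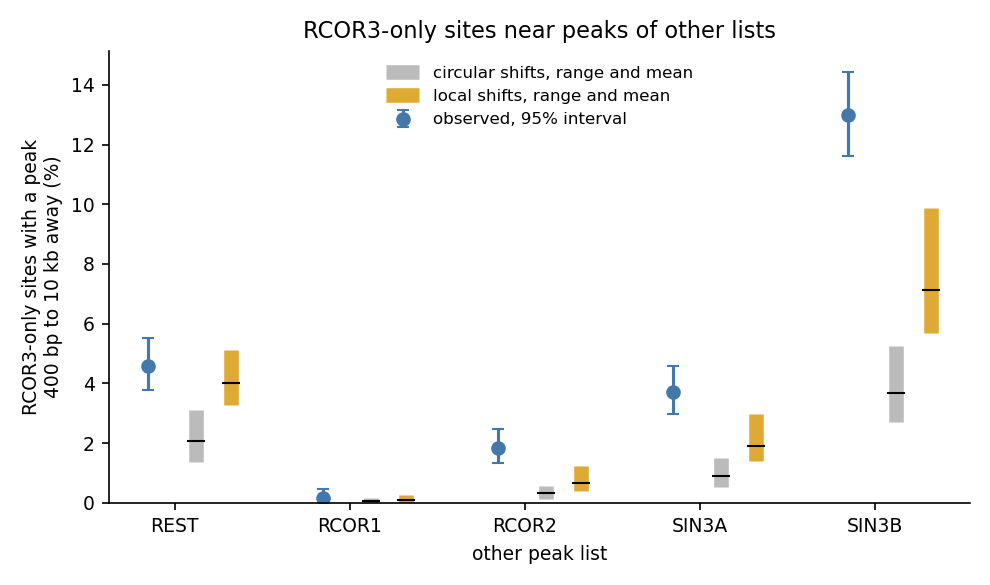
Percent of the 2289 RCOR3-only sites with a peak of each other list 400 bp to 10 kb away. Points are observed shares with 95% Clopper-Pearson intervals, and bars show the range and black ticks the mean over 19 circular (grey) or 20 local (yellow) shifts of that list; the observed share for REST (4.59%) lies inside the local range and those for RCOR2, SIN3A and SIN3B above both ranges.

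By distance, the excess over circular shifts declined outward for SIN3B, RCOR2 and, from 1000 bp, SIN3A, but changed little for REST from 1000 to 100000 bp. For SIN3B, 24 RCOR3-only sites lay 400 to 600 bp away against a shifted mean of 2.11, a ratio of 11.4. The ratio was 3.47 at 1000 to 2000 bp and 1.80 at 50000 to 100000 bp. For REST it stayed between 1.84 and 2.30 from 1000 to 100000 bp. RCOR2 declined from 4.96 at 2000 to 5000 bp to 3.19 at 50000 to 100000 bp. SIN3A declined from 6.33 at 1000 to 2000 bp to 2.62 at 50000 to 100000 bp. The SIN3B excess at the shortest range adjoins the limit of 400 bp on which the sites were chosen. Median distances to the nearest peak were 64.0 kb for SIN3B (329.6 kb as the mean over shifts), 166 kb for REST (413 kb), 319 kb for SIN3A (1404 kb), 957 kb for RCOR2 (2929 kb) and 11569 kb for RCOR1 (23403 kb).

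**Figure D5:**
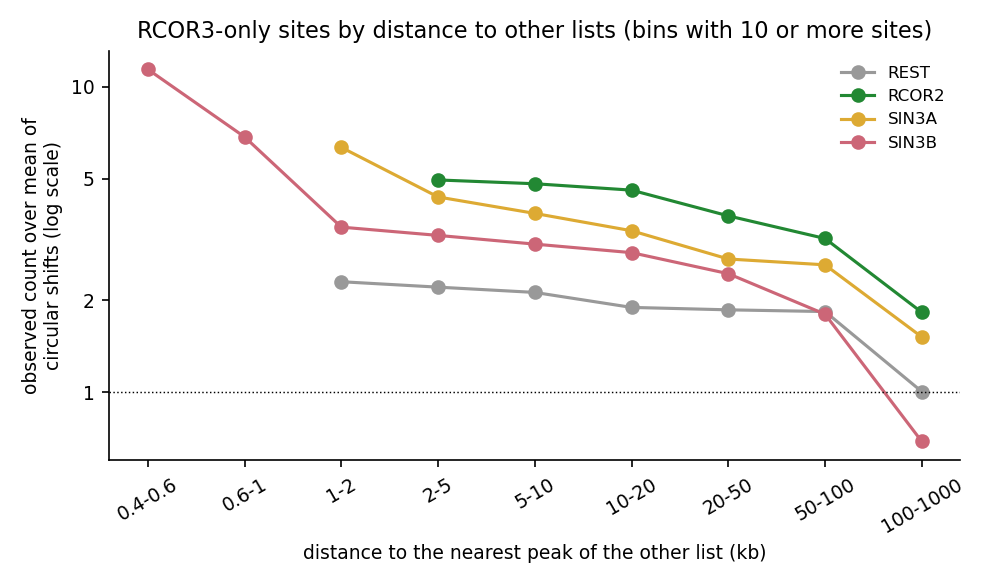
Number of RCOR3-only sites by distance to the nearest REST, RCOR2, SIN3A or SIN3B peak (horizontal axis, kb), divided by the mean over 19 circular shifts (vertical axis, log scale, dotted line at 1). Bins with fewer than 10 sites are not drawn; SIN3B falls from 11.4 in the first bin, while REST stays near 2 up to 100 kb.

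SIN3B was the nearest other list for 1313 RCOR3-only sites (57.4%) and REST for 552 (24.1%), and these are the longest of the 5 lists. At least 1 other list lay within 10 kb of 411 sites (18.0%, 16.4 to 19.6%), and 1878 sites had none. Only 3 sites had 4 other lists within 10 kb. Of these, chr7:25010071-25010111 (score 11.71) had SIN3A at 3.93 kb, SIN3B at 5.16 kb and REST and RCOR1 each at 5.18 kb. At the other extreme, 17 sites lay over 1000 kb from every other list. The best-scoring of them, chr12:20480571-20480831 with a score of 21.75, had its nearest neighbour, a REST peak, at 3062 kb. Score showed no steady change with nearness to another list. The median score, held at a tied value, was 11.71 for sites with another list within 10 kb (n = 411), at 10 to 100 kb (n = 1262) and beyond 100 kb (n = 616). The third quartiles were 13.38, 14.22 and 13.38. A REST peak lay within 10 kb of 4.58% of the lowest-scoring sites (score up to 10.87, 3.21 to 6.31%) and of 4.66% of the best-scoring group (score of at least 14.64, 2.87 to 7.11%). For SIN3B the shares of these groups were 14.5% (12.1 to 17.2%) and 12.6% (9.60 to 16.1%), with 10.9 to 13.5% at the scores between.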

How the data were processed

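ChIP-seq peak lists of REST, RCOR1, RCOR2, RCOR3, SIN3A and SIN3B from E14 cells, 1 library each, were used as the authors deposited them. Each list has 4 columns, with chromosome, start, end and a score per peak. The score that the authors deposited has no stated meaning and ranked peaks within a list only. Build mm8 is taken from the names of the lists. For the aligner, peak caller, control, threshold and depth, nothing is given in the sources used here. All starts and widths lie on a grid of 20 bp. Positions are printed as deposited, with the counting origin unknown.

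Membership compared midpoints (under 400 bp). Shares have exact 95% Clopper-Pearson intervals. Lists were shifted by 1/20 to 19/20 of the span of all lists on each chromosome, or by 200 to 2000 kb. The crowded stretch of chromosome X was left out of lists and shifts. Distance procedures were tested on simulated data. Tools were Python 3.11.15, numpy 2.4.6, pandas 2.3.3, scipy 1.17.1 and matplotlib 3.10.9.

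Regions named were the 10 best-scoring sites, the best on chromosomes 8, 9, 10, 17 and X, and the widest, most clustered, nearest-to-limit, most accompanied and most distant sites, up to 3 each. The sites, rules and alternatives were chosen with earlier results of these data known. Local shifts of the SIN3B-only sites were added after seeing the data.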

Additional observations from a re-analysis of the deposited data

How the results depend on the processing

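Counting only peaks whose deposited intervals overlapped as shared raised the RCOR3-only share of the RCOR3 list to 68.1% (2549 peaks). With only peaks scoring at or above the median of their own list, 1173 peaks had no partner, 55.6% of the shortened list, and 0 of them lay on chromosome X; the other lists were shortened too, so peaks with a partner in the full lists are counted here. With limits just under 200 or 1000 bp the share was 62.3 or 59.6%. The shares on chromosomes 8, 9, 10 and 17 stayed within their intervals under every alternative run for them. Median score percentile and width are held in place by tied values and show nothing about stability. For neighbouring RCOR3-only sites, windows of 1 and 100 kb gave 2.36 and 51.3%. For other lists, windows of 2 kb gave 0.917% (REST), 0.0437% (RCOR1), 0.524% (RCOR2), 0.612% (SIN3A) and 3.41% (SIN3B), and windows of 100 kb gave 36.2, 1.75, 12.2, 24.0 and 61.4%. Ratios to circular shifts for those 2 windows were 9.91 and 3.76 for RCOR2, 5.66 and 2.91 for SIN3A, and 5.37 and 2.40 for SIN3B. Local shifts at 10 kb lowered the ratios to 1.14 for REST, 2.75 for RCOR2, 1.95 for SIN3A and 1.82 for SIN3B. Leaving out chromosomes 8 and 9, run for the neighbour and other-list shares and ratios, moved none of these beyond its interval. No paired analysis was possible because each protein has 1 library. The length of the other lists limits what a site in no other list means.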
